A study of Rattus norvegicus with 939 samples.

Results

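The genes described here are 10 members of the BCL2 family, which helps to decide at the mitochondrion whether a stressed cell lives or dies: the executioners Bax and Bak1, the survival genes Bcl2, Bcl2l1 and Mcl1, and the BH3-only genes Bcl2l11, Bid, Pmaip1, Bmf and Bik. They were listed by name, and of the probe sets that the platform annotation gives to a gene, the one with the highest mean level stood for it. Of the 10, 8 had a probe set of their own among the 14219 features tested. The single probe set for Bax was also annotated to the locus LOC681314 on another chromosome, so its values belong to Bax, to LOC681314 or to both, and they are given below under the name Bax/LOC681314. Pmaip1 had no probe set in the annotation, and no value is given for it.

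The levels came from 939 Affymetrix rat genome arrays of polyadenylated RNA from primary rat hepatocytes, liver cells taken from the animal and kept in culture. On 826 arrays the cells had received 1 of 125 compounds in DMSO for 0.67 or 1 day, most of them at a single concentration, and on 113 arrays they had received DMSO alone. The labels give neither strain, sex and age of the rats nor any other genotype, and do not say whether replicate arrays came from separate cultures or animals, so p-values measure the spread between arrays. Each compound was compared with the vehicle arrays whose description names it, which gave 123 comparisons in campaign 1, 4 in campaign 2 and 1 in campaign 3, each of 5 or 6 treated arrays with 6 to 34 vehicle arrays over both times, a repeat of chlorpromazine with 6 arrays a group (campaign 4), and 6 compounds at 3 concentrations with 3 arrays a group, all at 1 day (campaign 5). Campaigns are sets of compounds run with vehicle arrays of their own. Counts and correlations below are over the comparisons of campaigns 1 to 3 unless another campaign is named. In these, colchicine, gentamicin and zidovudine each had 2 concentrations, and the other compounds 1. Compounds of 1 campaign often share vehicle arrays. A replicate number occurs more than once within 66 of the 275 treated groups (1 compound, concentration and time in a campaign). Leaving out a replicate number, as done below, can thus remove more than 1 array of a group, and does not stand for leaving out 1 replicate. A member was called higher or lower in a comparison if its p, adjusted by Benjamini and Hochberg's method over all 14219 features, was 0.01 or less and it showed a change of at least 1.5-fold, with limma's moderated test. All levels and changes are on the log2 scale, so a change of 1 is a doubling. Probe sets differ in how well they bind their target, so ranks among probe sets describe signal and not abundance. In a dish of cells, fewer cells of a type and less RNA per cell cannot be told apart.

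BCL2 family proteins bind one another through short shared domains. Executioners open the outer mitochondrial membrane so that cytochrome c leaves and caspases are activated, survival proteins hold the executioners and the BH3-only proteins in check, and BH3-only proteins sense different kinds of damage and release that brake or engage the executioners directly. Hepatocytes depend on Bcl-xL, the product of Bcl2l1, and on Mcl1 for survival, and need Bid to pass a death receptor signal on to the mitochondrion, once caspase-8 has cleaved it.

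The cultures carried the hepatocyte label in their RNA. The mean of 15 hepatocyte marker genes lay between 9.89 and 12.96 on treated arrays (median 11.81) and between 11.34 and 12.39 on vehicle arrays (median 12.04), and these genes ranked at a median of the 99.2th percentile of all features. Hepatocyte markers were called higher in 2.55% of tests and lower in 16.8%, against 3.67% and 4.91% of all features. Most of the lower calls came from Cps1 (76 comparisons), Apob (72), Hnf4a (51) and Tdo2 (46). Alb, Hpx and Serpina1 were called in 0 comparisons with limma. Tat was higher in 14 and lower in 7, and Cyp3a23-3a1 higher in 8 and lower in 3. Of 7 endothelial markers 11.4% of tests were lower and of 7 stellate cell markers 7.92%, and 0 were higher with limma, 33 and 37 being higher at an unadjusted p under 0.05. Most of these calls came from few genes: Kdr was lower in 54 comparisons and Lyve1 in 37, Reln in 52 and Acta2 in 16. The endothelial markers Flt1, Stab2 and Vwf and the stellate cell markers Col1a1, Des, Hand2 and Pdgfrb were called in 0. The part of these shifts in the changes of the BCL2 family was not tested. Most lymphocyte and cholangiocyte markers were near the low end of the scale. The cholangiocyte marker Epcam had a mean of 8.67 on vehicle arrays and was called lower in 22 comparisons and higher in 3. The mean of 11 Kupffer cell markers, which are genes of the resident liver macrophages, exceeded 7 on 94 treated and 31 vehicle arrays, against medians of 5.86 on treated and 5.95 on vehicle arrays. Those 125 arrays came from 22 hybridization days. Their values are given below beside the named changes that include such arrays. One gemfibrozil array and 1 clofibrate array stood apart: over all features their changes correlated at 0.03 and 0.04 with those of the other arrays of their compound, and the clofibrate array at 0.81 with the gemfibrozil arrays.

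Promoters of 8 of the listed genes, Pmaip1 among them, were matched by symbol in a RefSeq table (rat assembly GRCr8), and 3 words were sought on both strands from 250 bases before to 50 bases after each start: TGATGNAA, a composite word read by the stress factors ATF4 and CHOP, GTAAACA, a word read by forkhead factors, and the p53 half-site. The stretches with a match are shown because the genes that carry them, Bcl2, Bcl2l1 and Bcl2l11, differed widely in how often they were called. Each is printed 5′ to 3′ on the strand of the gene, with the matched word in capitals.
Bcl2, chr13:23367121-23367150, minus strand: ttggttTGATGTAActttcaatggacgcgt
Bcl2l1, first start, chr3:161764928-161764957, minus strand: aggaactagatTGATGGAAtgtgaaccatt
Bcl2l1, another start, chr3:161763421-161763450, minus strand: taaaaagaggcTGATGAAAcaattcaaagc
Bcl2l11, chr3:135819827-135819856, plus strand: aagtcactaggGTAAACAcgccggggtggg
Among all 33469 promoters of that length, 3.98% held TGATGNAA, 3.78% held GTAAACA and 7.98% held the p53 half-site, which matched in 0 of the 8. Bax and Bik are not among the 8, so their promoters were not searched. A match describes the letters and is no evidence that a factor binds there.

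Across the compounds, members were called higher more often than lower. Of 1152 comparisons of a member with its vehicle arrays, 71 were called higher, which is 6.16%, where 3.67% of all tests on all features were called higher. Another 22 were called lower, or 1.91%, where the share over all features was 4.91%. Without the fold bound the members had 207 comparisons higher and 57 lower, and the shares over all features were then 9.95% and 9.52%. The upward calls came mostly from Bcl2l1 with 31, Bid with 15 and Bax/LOC681314 with 9, and 15 of the downward calls came from Bak1. The changes of Bcl2 had an SD of 0.09, below the median of 0.21 over all features.

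**Figure D1:**
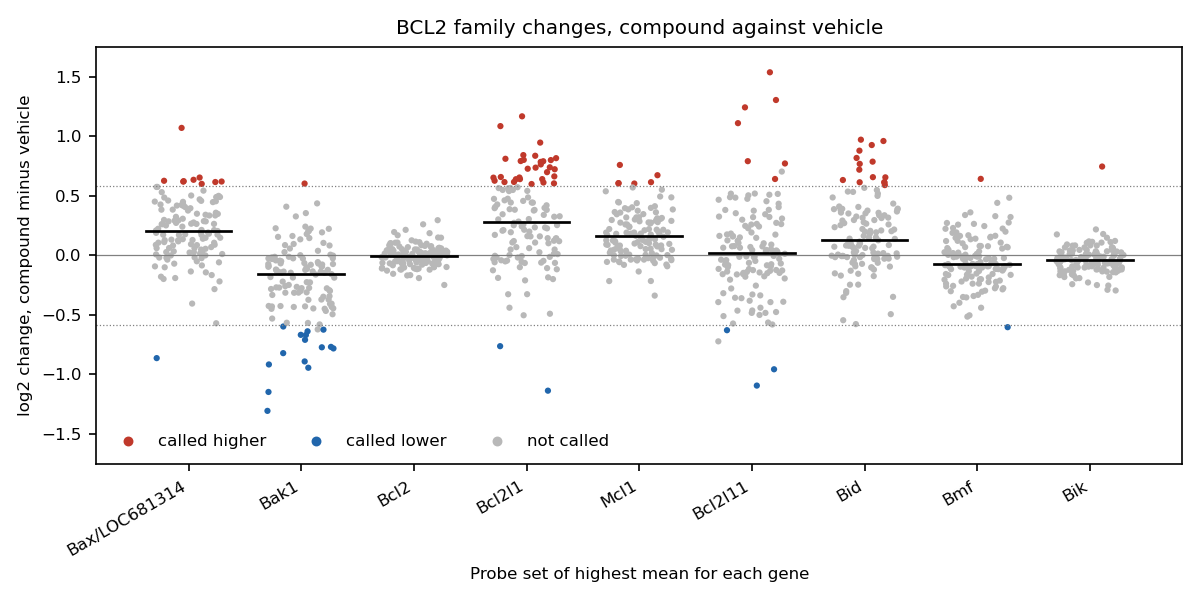
Change of each measured BCL2 family member (horizontal axis) in each comparison of a compound with its vehicle arrays in campaigns 1 to 3, on the log2 scale (vertical axis), with red points for comparisons called higher, blue for lower and grey for the rest, black lines at the medians and dotted lines at the fold bound. Bcl2l1, Bid and Bax/LOC681314 spread upward, Bak1 spreads downward, Bcl2l11 spreads to both sides, and Bcl2 stays between −0.25 and 0.30.

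Bcl2l1, located at chr3:161713777-161764844, was the member most often called. Its mean signal was 9.56, at the 85.4th percentile of probe sets, and lay between 7.85 and 10.73 on treated arrays (median 9.59) and between 8.37 and 9.86 on vehicle arrays (median 9.30). Its change was above 0 in 98 comparisons and below 0 in 30, with a median of 0.28. It was called higher in 31 comparisons, 24.2% of them, a number reached or passed by few features (95.9th percentile), and lower in 2.

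With pantoprazole at 650 uM, a proton pump inhibitor, Bcl2l1 lay between 10.40 and 10.73 on 6 treated arrays (median 10.58) and between 9.26 and 9.53 on 8 vehicle arrays (median 9.46). Every treated array was above every vehicle array, and the change was 1.17 (SE 0.07, 2.25-fold, adjusted p = 1.9e-09). Dexamethasone at 456 uM, a glucocorticoid, gave 10.42 to 10.69 on treated arrays (median 10.51) and 9.29 to 9.58 on vehicle arrays (median 9.45), a change of 1.09 (SE 0.06, adjusted p = 4.6e-09). The antidepressant venlafaxine at 1481 uM gave 9.80 to 10.41 on treated arrays (median 10.16) and 8.79 to 9.41 on 16 vehicle arrays (median 9.21), a change of 0.95 (SE 0.09, adjusted p = 8.0e-09), and it was 0.95 without the 2 vehicle arrays with Kupffer cell markers above 7. In both, the treated and vehicle arrays did not overlap. Doxofylline at 13500 uM (0.84), risperidone at 400 uM (0.84), sulconazole at 40 uM (0.82) and itraconazole at 10 uM (0.81) followed.

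The 2 compounds that lowered Bcl2l1 were valeric acid and cisplatin. With valeric acid at 23000 uM, a short fatty acid, Bcl2l1 lay between 8.15 and 8.67 on treated arrays (median 8.40) and between 9.33 and 9.76 on 6 vehicle arrays (median 9.55), a change of −1.14 (SE 0.09, adjusted p = 2.4e-07). Cisplatin at 63 uM, a DNA crosslinker, gave 8.20 to 9.07 on treated arrays (median 8.71) and 9.26 to 9.53 on vehicle arrays (median 9.46), a change of −0.76 (SE 0.11, adjusted p = 3.5e-05). Neither pair of groups overlapped. A second Bcl2l1 probe set, with a mean of 7.75, had 26 comparisons called higher and 3 lower, of which 22 and 2 were shared with the first, and the changes of the pair correlated at 0.95 over the comparisons. The remaining probe set, with a mean of 5.12, had 0 called, and its correlation was 0.26.

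**Figure D2:**
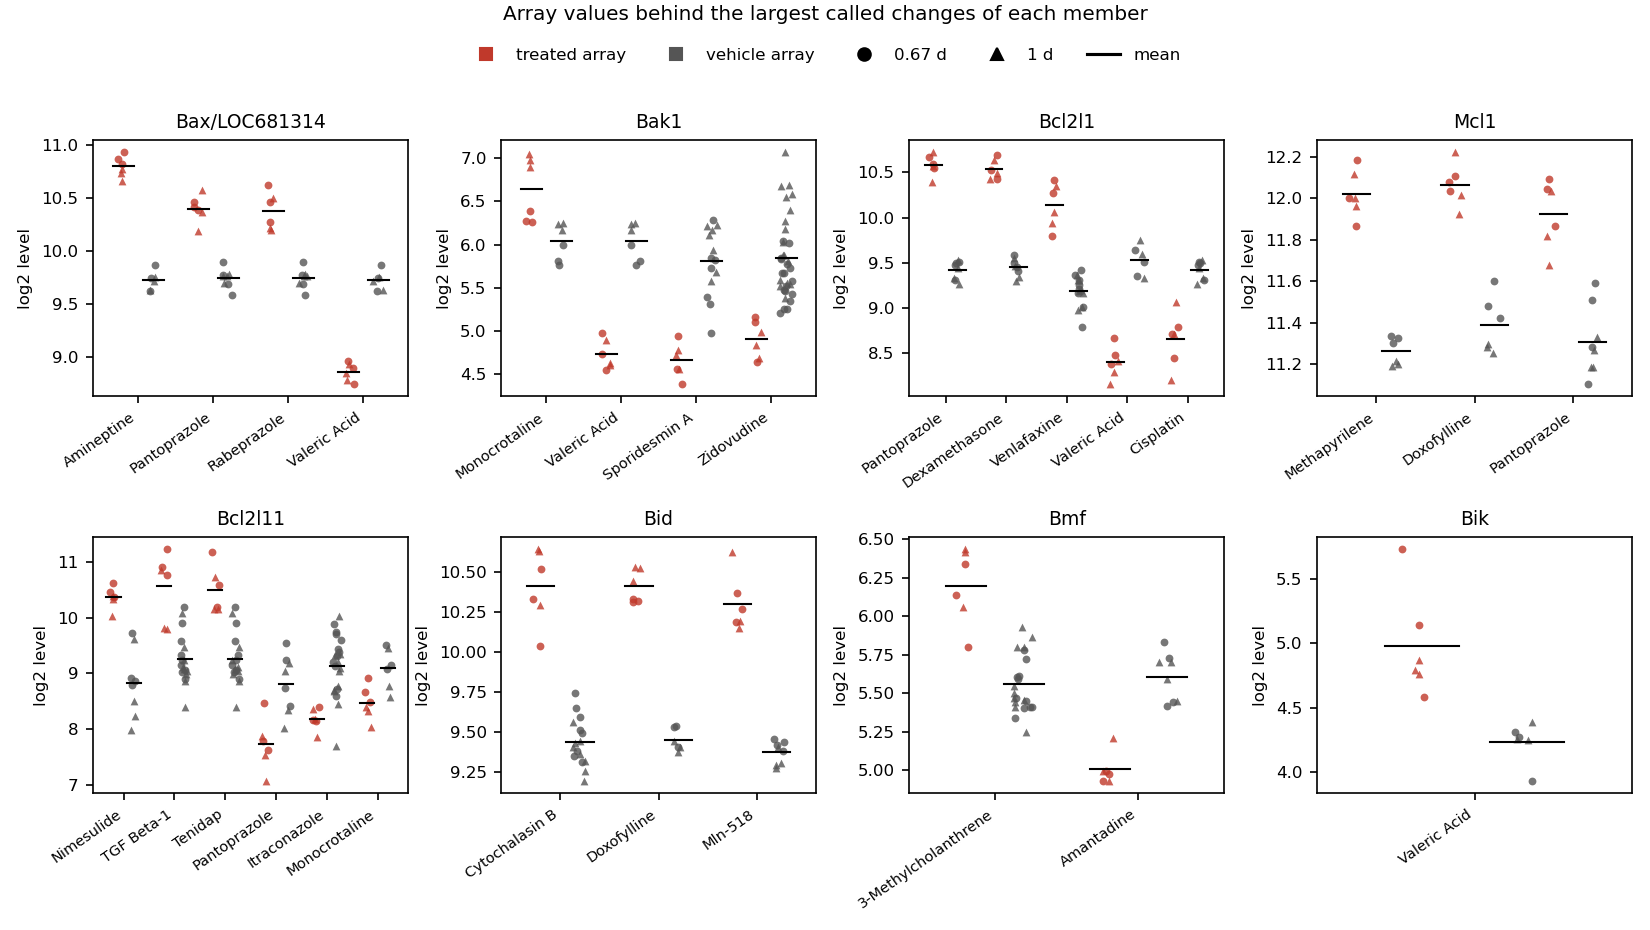
Level of a BCL2 family member on each array (vertical axis, log2) for its largest called changes, with treated arrays (red) left of the vehicle arrays (grey) they were compared with, circles for 0.67 day, triangles for 1 day and a line at each group's mean. Treated and vehicle arrays are fully separated for Bcl2l1 with pantoprazole (treated from 10.40, vehicle up to 9.53) and overlap for Bcl2l11 with pantoprazole (treated up to 8.47, vehicle from 8.02).

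Mcl1, at chr2:185884840-185912532, encodes a survival protein that is made and degraded within a short time. Its mean signal was 11.43, at the 97.2th percentile of probe sets, and lay between 10.44 and 12.24 on treated arrays (median 11.44) and between 10.74 and 11.85 on vehicle arrays (median 11.27). It was above 0 in 101 comparisons and below 0 in 27, but its changes were small, from −0.34 to 0.76, and 6 comparisons were called higher and 0 lower, by limma as by an ordinary linear model. Without the fold bound 36 were higher and 1 lower, and 66 and 3 at an unadjusted p under 0.05. Without the arrays of replicate 1, 11 were called higher.

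Methapyrilene at 300 uM, an antihistamine, gave the largest Mcl1 change: 11.87 to 12.19 on treated arrays (median 12.00) and 11.19 to 11.33 on 6 vehicle arrays (median 11.26), a change of 0.76 (SE 0.06, 1.69-fold, adjusted p = 1.0e-06). Doxofylline gave 11.92 to 12.22 on treated arrays (median 12.06) and 11.25 to 11.60 on vehicle arrays (median 11.36), a change of 0.67 (SE 0.07, adjusted p = 5.2e-06). Pantoprazole gave 11.68 to 12.09 on treated arrays (median 11.95) and 11.10 to 11.59 on vehicle arrays (median 11.28), a change of 0.61 (SE 0.08, adjusted p = 1.2e-05). No treated array overlapped a vehicle array in any of the 3. The pantoprazole change fell under the fold bound without treated replicate 3 of 1 day or vehicle replicate 2 of 0.67 day (0.57 each) and after renewed quantile normalization (0.56). L-buthionine sulfoximine, vinblastine and lomustine made up the rest, at 0.61, 0.61 and 0.60. A second Mcl1 probe set had 10 comparisons called higher, 6 of them the same ones, and correlated at 0.92.

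Bcl2, at chr13:23204464-23366900, is the founding member of the family and is little expressed in hepatocytes. Its probe set averaged 4.98, at the 25.8th percentile, and lay between 4.52 and 5.60 on treated arrays (median 4.97) and between 4.49 and 5.38 on vehicle arrays (median 4.96). It was called in 0 comparisons, by limma as by an ordinary linear model, with 5 higher and 3 lower at an unadjusted p under 0.05, and the changes ran from −0.25 to 0.30. A signal this low limits what the probe set can show.

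Bax/LOC681314, the probe set of the executioner Bax (chr1:105076472-105081906) and of LOC681314 (chr10:87032488-87033310), had a mean of 9.92. It lay between 8.74 and 10.93 on treated arrays (median 9.93) and between 9.41 and 10.08 on vehicle arrays (median 9.77). Its change was small and mostly upward, above 0 in 104 comparisons and below 0 in 24, with a median of 0.20, and 58 were higher by adjusted p alone. Past the fold bound 9 were called higher, which is 7.03%, and 1 lower. Many of these lay just past the bound, and after renewed quantile normalization 4 were called higher, with pantoprazole at 0.58 and no longer among them.

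Amineptine at 1667 uM, a tricyclic antidepressant, stood at the top, with 10.65 to 10.93 on treated arrays (median 10.79) and 9.62 to 9.87 on 6 vehicle arrays (median 9.73), a change of 1.07 (SE 0.06, 2.10-fold, adjusted p = 9.6e-09). Pantoprazole gave 10.18 to 10.57 on treated arrays (median 10.40) and 9.58 to 9.89 on vehicle arrays (median 9.76), a change of 0.65 (SE 0.07, adjusted p = 7.6e-07). Rabeprazole at 333 uM, also a proton pump inhibitor, gave 10.20 to 10.62 on treated arrays (median 10.37) against the same vehicle arrays, a change of 0.63 (SE 0.08, adjusted p = 2.7e-05). All 3 sets of treated arrays lay above all their vehicle arrays. Lansoprazole, olanzapine, desloratadine, clozapine, nortriptyline and idarubicin were called between 0.60 and 0.63. Valeric acid gave 8.74 to 8.96 on treated arrays (median 8.87) and the same 9.62 to 9.87 on vehicle arrays, a change of −0.86 (SE 0.06, adjusted p = 6.2e-08). This was the single compound that lowered the probe set past the call.

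Bak1, at chr20:5102334-5111615, is the second executioner. Its probe set averaged 5.66, at the 34.7th percentile, and lay between 4.38 and 7.05 on treated arrays (median 5.62) and between 4.59 and 7.07 on vehicle arrays (median 5.76). The Bak1 changes went mostly down: they were above 0 in 26 comparisons and below 0 in 102, with a median of −0.15, and 15 comparisons (11.7%) were called lower and 1 higher. The vehicle arrays were also less even than for most members, with a median SD of 0.28 within a control set and time. The 14 vehicle arrays of campaign 1 with Kupffer cell markers above 7 had a median Bak1 level of 6.19, and the other 74 had 5.81. With every array above 7 left out, 14 comparisons were called lower for Bak1. The part of the markers in the Bak1 changes was otherwise not tested. The downward calls numbered 8 when all arrays of replicate 2 were left out, 5 with the arrays of 0.67 day alone and 6 with those of 1 day alone.

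Valeric acid lowered Bak1 most: 4.55 to 4.97 on treated arrays (median 4.68) and 5.76 to 6.25 on 6 vehicle arrays (median 6.08), a change of −1.31 (SE 0.10, adjusted p = 9.4e-08). Sporidesmin A at 0.15 uM, a fungal toxin, gave 4.38 to 4.94 on treated arrays (median 4.64) and 4.98 to 6.29 on 14 vehicle arrays (median 5.84), a change of −1.15 (SE 0.15, adjusted p = 8.0e-07). Zidovudine at 14800 uM, a nucleoside analog, gave 4.64 to 5.16 on treated arrays (median 4.91) and 5.21 to 7.07 on 34 vehicle arrays (median 5.75), a change of −0.94 (SE 0.17, adjusted p = 7.7e-06). None of these groups overlapped. For zidovudine, 2 treated and 8 vehicle arrays had Kupffer cell markers above 7, and the change without them was −0.87. When the arrays of replicate 1 were left out the zidovudine change was −0.78, with an adjusted p of 0.0231. Monocrotaline at 333 uM, a pyrrolizidine alkaloid, was the exception, with 6.26 to 7.05 on treated arrays (median 6.64) and 5.76 to 6.25 on vehicle arrays, a change of 0.60 (SE 0.07, adjusted p = 5.6e-05) that fell below the fold bound without replicate 3 of 1 day among the treated (0.57) or the vehicle arrays (0.58).

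Bid, at chr4:155785366-155808775, links death receptors to the mitochondrion. It averaged 9.46, at the 84.4th percentile, and lay between 8.28 and 10.65 on treated arrays (median 9.45) and between 8.90 and 9.83 on vehicle arrays (median 9.32). Its change was above 0 in 89 comparisons and below 0 in 39, and 15 comparisons (11.7%) were called higher and 0 lower, by limma as by an ordinary linear model, with 40 higher and 5 lower by adjusted p alone and 56 and 9 at an unadjusted p under 0.05. Its second probe set had 18 called higher, among them all 15, and correlated at 0.98 with the first.

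Cytochalasin B at 167 uM, which caps actin filaments, gave the largest Bid change: 10.04 to 10.64 on treated arrays (median 10.43) and 9.19 to 9.74 on 16 vehicle arrays (median 9.42), a change of 0.97 (SE 0.08, 1.96-fold, adjusted p = 8.1e-09). Without the 2 treated and 2 vehicle arrays with Kupffer cell markers above 7 it was 0.91. Doxofylline, a xanthine bronchodilator, gave 10.31 to 10.53 on treated arrays (median 10.39) and 9.38 to 9.54 on 6 vehicle arrays (median 9.43), a change of 0.96 (SE 0.07, adjusted p = 1.5e-07). The kinase inhibitor Mln-518 at 51 uM gave 10.15 to 10.63 on treated arrays (median 10.23) and 9.28 to 9.46 on 8 vehicle arrays (median 9.39), a change of 0.93 (SE 0.07, adjusted p = 2.8e-07). In all 3 the treated arrays lay above every vehicle array. Gefitinib (0.88), venlafaxine (0.82), carvedilol (0.79) and labetalol (0.77) came next.

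The 2 kinase inhibitors need their vehicle arrays beside them. In campaign 2 all 10 vehicle arrays had a Kupffer cell marker mean between 7.72 and 8.50, whereas the gefitinib arrays lay between 5.52 and 5.96 and the Mln-518 arrays between 5.46 and 5.86. Bid was 9.97 to 10.41 with gefitinib at 35 uM and 10.15 to 10.63 with Mln-518, against 9.28 to 9.48 on the 10 vehicle arrays. Imatinib at 15 uM had Bid levels of 9.65 to 9.99 and a Kupffer cell marker mean of 6.77 to 8.10, and erlotinib at 10 uM had 9.28 to 9.58 and 7.50 to 8.20. Within this campaign the compounds with the highest Bid levels had the lowest Kupffer cell marker levels. The part of the marker difference in the Bid changes was not tested. Without the arrays above 7 no vehicle array of the campaign was left, and 10 comparisons were called higher for Bid among those that could still be fitted. With the vehicle arrays whose description spells Mln-518 with that very number alone, its Bid change was 0.84 with an adjusted p of 0.0125.

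**Figure D3:**
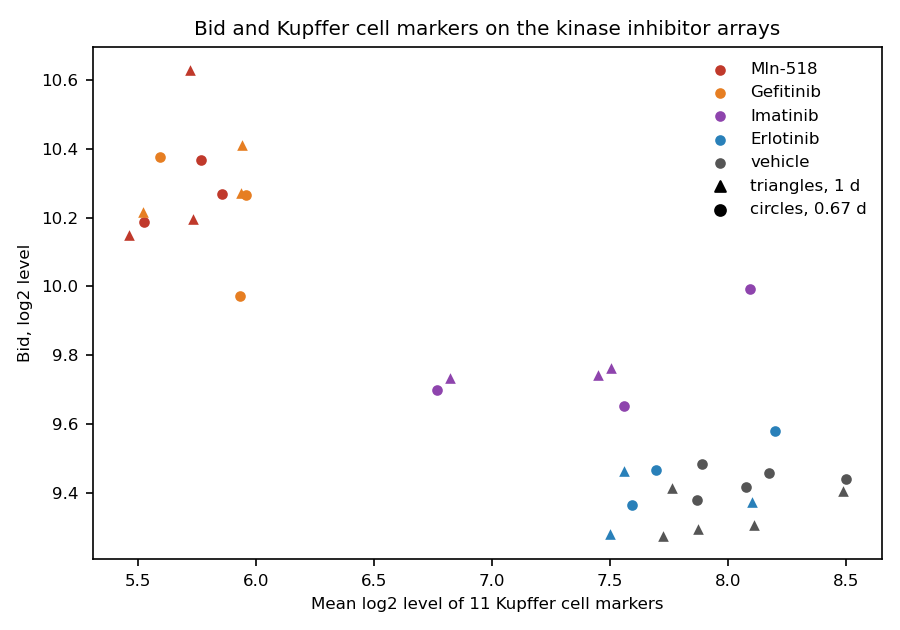
Bid level (vertical axis, log2) against the mean of 11 Kupffer cell markers (horizontal axis, log2) on each array of the 4 kinase inhibitors of campaign 2 and on their 10 vehicle arrays. The gefitinib and Mln-518 arrays lie at Bid levels from 9.97 up and marker means below 6, and the vehicle arrays at Bid levels up to 9.48 and marker means of 7.72 or more.

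Bcl2l11, at chr3:135820042-135857330, encodes BIM, a BH3-only protein that is known as a forkhead target and binds all survival members. It was the most variable member, with an SD over compounds of 0.41 and changes from −1.09 to 1.54, and it lay between 7.06 and 11.24 on treated arrays (median 9.17) and between 7.71 and 10.20 on vehicle arrays (median 9.09). Vehicle arrays of 1 control set and time had a median SD of 0.46 for it, which is larger than for any other member. Of all comparisons, 7 were called higher and 3 lower, and the median change was 0.02.

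Nimesulide at 61.7 uM, an anti-inflammatory drug, gave 10.04 to 10.62 on treated arrays (median 10.38) and 7.99 to 9.73 on 8 vehicle arrays (median 8.83), a change of 1.54 (SE 0.22, 2.90-fold, adjusted p = 2.9e-05), and these arrays did not overlap. All 6 treated and 6 of the 8 vehicle arrays had Kupffer cell markers above 7, and without the arrays of replicate 1 the change was 1.17 with an adjusted p of 0.103. TGF Beta-1 at 5 ng/ml, a cytokine that drives hepatocytes into apoptosis, gave 9.80 to 11.24 on treated arrays (median 10.82) and 8.39 to 10.20 on 18 vehicle arrays (median 9.14), a change of 1.30 (SE 0.20, adjusted p = 3.1e-05). Tenidap at 41 uM gave 10.15 to 11.19 on treated arrays (median 10.40) against the same vehicle arrays, a change of 1.24 (SE 0.19, adjusted p = 5.0e-05). It missed the adjusted p at 0.67 day alone (1.28, adjusted p = 0.0102), at 1 day alone (1.20, adjusted p = 0.0197) and without the arrays of replicate 1 (1.10, adjusted p = 0.0258), and by the median of the probe sets it was 0.38, under the fold bound. In the TGF Beta-1 and tenidap comparisons the highest vehicle array lay above the lowest treated array. Valeric acid (1.11), sparteine (0.79), rifampin (0.77) and olanzapine (0.64) were also called higher.

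On the lower side, pantoprazole gave 7.06 to 8.47 on treated arrays (median 7.70) and 8.02 to 9.55 on 8 vehicle arrays (median 8.90), a change of −1.09 (SE 0.23, adjusted p = 7.0e-04). Itraconazole gave 7.86 to 8.40 on treated arrays (median 8.17) and 7.71 to 10.03 on 22 vehicle arrays (median 9.20), a change of −0.96 (SE 0.20, adjusted p = 2.6e-04), which was −1.16 without the arrays with Kupffer cell markers above 7 and −0.74 (adjusted p = 0.130) without those of replicate 1. Monocrotaline gave 8.04 to 8.91 on treated arrays (median 8.44) and 8.58 to 9.52 on 6 vehicle arrays (median 9.12), a change of −0.63 (SE 0.14, adjusted p = 0.00393). All 3 falls had overlapping arrays. At either time alone the pantoprazole change was of like size but missed the adjusted p (−1.03 at 0.67 day and −1.16 at 1 day). The monocrotaline call was lost without treated replicate 1 of 1 day (−0.57), without vehicle replicate 1 of 0.67 day (−0.58) or of 1 day (−0.51), and with hybridization day (−0.62, adjusted p = 0.0204) or extraction day (−0.52) as a block.

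The 3 probe sets of Bcl2l11 did not tell the same story for every compound. The other 2 had much lower means, 5.55 and 4.92. For nimesulide they gave 0.54 and 1.49, for TGF Beta-1 0.42 and 1.29, and for tenidap 0.19 and 1.05, the second of each pair called. For pantoprazole they gave 0.10 and 0.15, neither called, where the first had fallen by 1.09. Over the comparisons they correlated at 0.53 and 0.68 with the first, and 6 of the 12 rises called on the last were also called on the first. With the median of the probe sets the number called was 4 higher and 0 lower, and against all vehicle arrays of the campaign it was 12 higher and 6 lower.

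Bmf, at chr3:125953466-125974087, and Bik, at chr7:116552303-116571317, are BH3-only genes, Bmf being tied to the cytoskeleton. Both were low, with means of 5.51 and 4.26. For Bmf, 3-methylcholanthrene at 23 uM, an aryl hydrocarbon receptor agonist, gave 5.80 to 6.44 on treated arrays (median 6.24) and 5.24 to 5.93 on 22 vehicle arrays (median 5.49), a change of 0.64 (SE 0.09, adjusted p = 5.0e-06). The lowest treated array overlapped the vehicle range. With extraction day as a block the change was 0.57 and with the replicate number as a block 0.50, both under the fold bound, and without the 4 treated and 8 vehicle arrays with Kupffer cell markers above 7 it was 0.81. Amantadine at 1500 uM gave 4.93 to 5.21 on treated arrays (median 4.98) and 5.42 to 5.83 on 8 vehicle arrays (median 5.64), a change of −0.60 (SE 0.08, adjusted p = 1.1e-05) with no overlap, which missed the fold bound without treated replicate 3 of 1 day (−0.58) or vehicle replicate 2 (−0.57) or 4 (−0.58) of 0.67 day. Bik was called for valeric acid alone, with 4.58 to 5.74 on treated arrays (median 4.83) and 3.93 to 4.39 on 6 vehicle arrays (median 4.26), a change of 0.75 (SE 0.16, adjusted p = 0.00131). The groups did not overlap, but the highest treated array, at 5.74, stood above the other treated arrays, and the change passed the call at neither time alone (0.98 at 0.67 day with an adjusted p of 0.0182, and 0.51 at 1 day).

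Most comparisons called no member: 72 called 0, 31 called 1, 18 called 2, 4 called 3, 1 called 4 and 2 called 5. Those with several members also called many other genes: the median number of features called was 254 for comparisons with 0 members, 1871 with 1, 1941 with 2 and 4124.5 with 5. Bcl2l1 was higher in 21 of the 25 comparisons that called at least 2 members, together with Bid in 9 and with Bax/LOC681314 in 7.

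Pantoprazole and valeric acid, the 2 compounds with 5 members, moved them in different patterns. Pantoprazole raised the survival genes Bcl2l1 and Mcl1 and the Bax/LOC681314 probe set, and lowered Bak1 (−0.92) and Bcl2l11, among 4209 features called. Valeric acid lowered Bcl2l1, Bak1 and Bax/LOC681314 and raised Bcl2l11 and Bik, among 4040. Bak1 went down in both, whereas Bcl2l1, Bax/LOC681314 and Bcl2l11 had opposite signs. Doxofylline raised Bcl2l1, Mcl1 and Bid and lowered Bak1 (−0.89), among 2567 features called (18.1% of all). Methapyrilene raised Bcl2l1 (0.66), Mcl1 and Bid (0.59), among 2193 (15.4%).

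**Figure D4:**
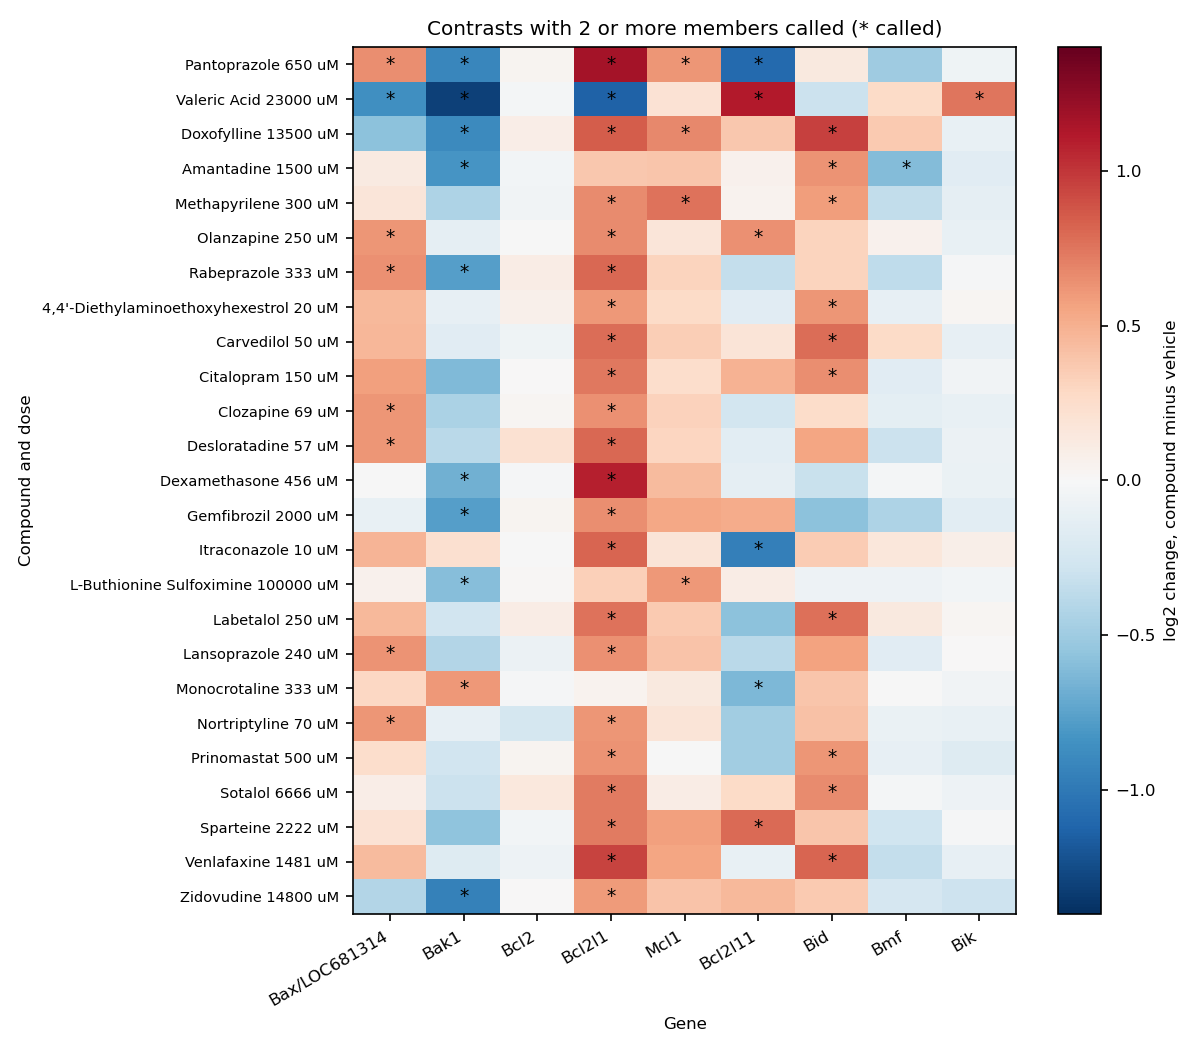
Change (log2, colour scale) of each member (columns) in the comparisons that called 2 or more members (rows, compound and concentration), with called changes marked by an asterisk. Bcl2l1 is called higher in 21 of these 25 comparisons, Bak1 lower in 9, and valeric acid is the row where Bcl2l1 (−1.14) and Bax/LOC681314 (−0.86) are lowered together.

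Grouped by drug class, the 4 proton pump inhibitors had changes of 0.49 to 0.65 for Bax/LOC681314 and 0.57 to 1.17 for Bcl2l1, with 3 of 4 called for each, and their Bak1 changes were −0.92 to −0.28, with 2 called. Their comparisons called 9.21% of all features higher and 10.4% lower on average. The 4 azole antifungals had changes of 0.40 to 0.82 for Bcl2l1, with 3 called, and of −0.96 to −0.07 for Bcl2l11, with 1 called. On average 5.59% of all features were higher in these comparisons and 7.35% lower. Among 10 antidepressants, 4 were called higher for Bcl2l1, 2 for Bax/LOC681314 and 2 for Bid. On average 4.47% of all features were higher in the 10 and 5.43% lower, with 0.169% to 19.9% called in either direction in a comparison.

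DNA-damaging drugs raise Bax through p53 in many cells. Of 3 anthracyclines, idarubicin at 1.5 uM was called for Bax/LOC681314 (0.60), and the range of the 3 was 0.06 to 0.60, where 2.45% of all features were higher. Of the 9 alkylating and crosslinking agents, 0 were called for Bax/LOC681314 with limma, with changes from −0.02 to 0.49 and a median of 0.31. Among these agents lomustine was called higher for Mcl1 and cisplatin lower for Bcl2l1. On average 5.30% of all features were higher in the 9 and 7.83% lower. Lomustine itself called 27.4% of all features in either direction and cisplatin 24.8%. The topoisomerase II poison etoposide at 125 uM raised Bcl2l1 by 0.64, among 0.753% of all features. Its Bax/LOC681314 change of 0.20 was not called. Among 4 microtubule poisons, vinblastine was called higher for Mcl1 and colchicine at 2000 uM lower for Bak1 (−0.67), where 5.08% of all features were higher and 8.89% lower. The classes were written by hand, hold few compounds each and were not compared by a test.

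The 2 arrays that stood apart among the fibrates mattered for gemfibrozil at 2000 uM. With all 6 gemfibrozil arrays the change was 0.65 for Bcl2l1 and −0.77 for Bak1, both called. Without the array that stood apart the change was 0.81 for Bcl2l1 and −0.86 for Bak1, and 2 more members were called, Mcl1 higher at 0.66 (adjusted p = 3.4e-04) and Bid lower at −0.70 (adjusted p = 2.4e-04). No member was called for clofibrate without its array.

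For most members the changes at 0.67 and 1 day followed each other. Measured on separate treated and vehicle arrays, the changes at 0.67 and 1 day correlated over the comparisons at 0.91 for Bid, 0.89 for Bcl2l1, 0.89 for Bax/LOC681314, 0.76 for Bak1, 0.76 for Bcl2l11, 0.74 for Mcl1, 0.68 for Bmf, 0.43 for Bik and 0.06 for Bcl2. With 3 treated arrays at a time Bcl2l1 was called higher in 27 comparisons at 0.67 day and 18 at 1 day, 14 of them at both, and Bid in 10 and 17, 9 of them at both. Of the 1152 differences between the times, 0 passed an adjusted p of 0.05 with limma and 49 had an unadjusted p under 0.05, where 0.0909% of all tests on all features passed. The smallest adjusted p was 0.0523, for Bcl2l1 with colchicine, whose change was larger at 1 day by 0.60 (SE 0.18).

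**Figure D5:**
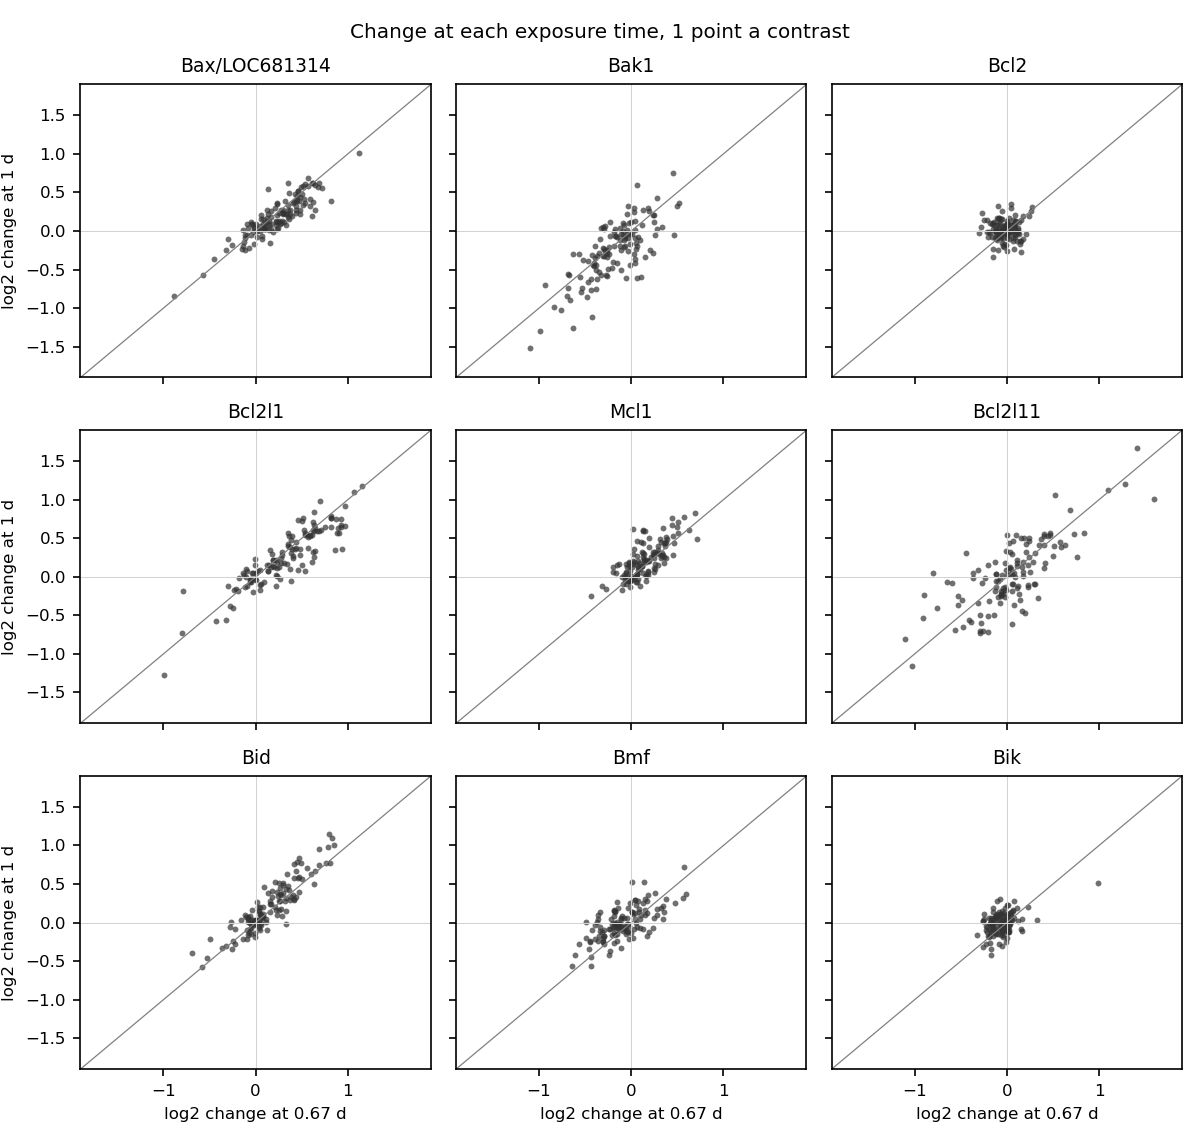
Change at 1 day (vertical axis, log2) against change at 0.67 day (horizontal axis, log2), 1 panel per member and 1 point per comparison, with the diagonal drawn. Points follow the diagonal for Bid (r = 0.91), Bcl2l1 and Bax/LOC681314 (0.89 each) and form a round cloud for Bcl2 (0.06).

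Concentration was varied for 6 compounds in campaign 5. Of 54 slopes over 3 concentrations, 0 passed an adjusted p of 0.05 with limma and 2 had an unadjusted p under 0.05, Bak1 and Bmf with clofibrate, at −0.15 and −0.16 per step. Over all features the share that passed was 0.00117%. Of 162 comparisons of a concentration with its vehicle arrays, 0 were called with limma and 14 had an unadjusted p under 0.05, where 1.33% of tests on all features were called and 9.01% had an unadjusted p under 0.05. With the replicate number as a block, which pairs these arrays, 0 of the 162 were called and 25 had an unadjusted p under 0.05, against 2.39% and 14.3% over all features. In the fit without the block omeprazole at 435 uM came nearest, with changes of 0.55 for Bax/LOC681314 (SE 0.11, adjusted p = 0.01003) and 0.49 for Bcl2l1 (SE 0.14, adjusted p = 0.0325), both also under the fold bound. With the block the adjusted p was 0.00408 and 0.0074, and the changes stayed under the fold bound. The concentrations of omeprazole lay close together, at 365, 400 and 435 uM.

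Some concentrations repeated those of campaign 1 at 1 day on other arrays. Of 54 changes measured this way in campaign 5, 33 had the same sign in both campaigns. In the fit over both times, campaign 1 had called 3 members with methapyrilene at 300 uM and 0 with the other repeated compounds. With methapyrilene at 300 uM the Bcl2l1 change was 0.51 in campaign 5 and 0.61 in campaign 1, that of Mcl1 0.43 and 0.82, and that of Bid 0.58 and 0.76. Bcl2l1 was 0.65, 0.51 and 0.57 above vehicle at 100, 300 and 500 uM methapyrilene in campaign 5, with SEs of 0.19, 0.27 and 0.33. Chlorpromazine at 43.9 uM, repeated with 6 arrays a group in campaign 4, gave a Bid change of 0.34 there and of 0.58 in campaign 1. The repeat called 0 of 9 members with limma, 0 also having an unadjusted p under 0.05, where 0.211% of all features were called. The replicate number pairs treated and vehicle arrays of a hybridization day there. With it as a block, 0 of the 9 were called and 0 had an unadjusted p under 0.05, that of Bid being 0.0562. In that fit 1.51% of all features were called and 16.7% had an unadjusted p under 0.05. One chlorpromazine array of campaign 4, replicate 5, lay at a Bid level of 8.57. Without that array the treated arrays lay between 9.50 and 9.92 and the vehicle arrays between 9.04 and 9.60. The Bid change was then 0.54 in the fit without the block (SE 0.12, adjusted p = 0.0256), under the fold bound. The array was left out after its value was seen.

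The members did not move as 1 group. Over the comparisons the 36 pairs of members correlated at −0.36 to 0.51, with a median of −0.01. The strongest pair was Bax/LOC681314 with Bcl2l1, an executioner probe set and a survival gene, followed by Bcl2l1 with Bid at 0.43 and Bcl2l1 with Mcl1 at 0.40, and the most opposed were Bak1 and Mcl1. Compounds that share vehicle arrays are not independent points, so these values are descriptions.

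Each member had genes elsewhere that followed it more closely. Bcl2l1 was followed by Cebpb (r = 0.75), a liver transcription factor of the acute phase, by the nucleotide receptor gene P2ry2 (0.72) and by Maz (0.71). Mcl1 was followed by Itpkc (0.81), Arid3b (0.79) and Hapstr1 (0.77). P2ry2 was also first for Bid (0.71), before Dclre1a (0.68) and Lamtor5 (0.67). Bak1 had Plscr3 (0.79), S100a16 (0.75) and Cmtm3 (0.73), and Bax/LOC681314 had Amdhd2, Ttc32 and Commd4 (0.71 each). For Bcl2l11 the nearest were Vwa1 (0.70), Ero1a (0.62) and Angptl8 (0.59), and for Bmf Rhob (0.65), Sbk1 (0.62) and Rsph9 (0.61). For Bik they were Zcchc18 (0.64), Tmod2 (0.63) and Mogat2 (0.62), and for Bcl2 Tlcd3b (0.61), Slc9a5 (0.59) and Adam2 (0.59). The genes named for Bcl2 were called in 0 comparisons, as was Bcl2, and those for Bik in 1 or 2. Bcl2 and Bik had mean signals of only 4.98 and 4.26.

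Other genes of the death pathway were listed by hand. Among 12 measured relatives of the BCL2 family, 4.75% of comparisons were called higher and 2.99% lower: Bbc3, which encodes the BH3-only protein PUMA, was higher in 42 comparisons and lower in 0, with a median change of 0.38, and the executioner relative Bok was higher in 0 and lower in 20. Among 14 caspase and apoptosome genes 4.19% were higher and 5.47% lower, with Casp4 higher in 57 comparisons and Apaf1, the apoptosome scaffold, lower in 49 (−2.37 with pantoprazole). Of 10 death receptor and ligand genes 6.80% were higher and 7.89% lower. The death ligand gene Tnfsf10 was lower in 74 comparisons, with a median change of −1.02, and Cflar, which blocks caspase-8, was higher in 44. Of 4 inhibitor of apoptosis genes 8.79% were higher and 3.52% lower, Birc2 being higher in 37 and Birc3 higher in 8 and lower in 8.

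The 4 remaining lists, also written by hand, had larger shares of calls. Of 12 ATF4 and CHOP targets, genes of the endoplasmic reticulum and amino acid stress response, 45.8% of comparisons were higher and 2.28% lower, and Ddit3, which encodes CHOP, was higher in 74 comparisons. Of 19 p53 targets 18.7% were higher and 4.61% lower, with Sesn2 higher in 71 and Aen in 58. Within that list Sesn1 was lower in 34 and Pml in 30. Of 11 forkhead targets 18.3% were higher and 9.30% lower, with Pdk4 and Irs2 higher in 73 and 72 and Sesn3 and Cited2 lower in 56 and 22. Of 10 short-lived transcripts 18.98% were higher and 4.61% lower, with Atf3 and Myc higher in 73 and 55 and Nfkbia lower in 20. The lists share genes: Sesn2 and Atf3 are also among the ATF4 and CHOP targets, so their calls count in more than 1 list. The BCL2 family members themselves, at 6.16% higher, lay below these 4 lists and nearer to the 3.67% of all features. Lists and members were chosen with earlier results of these data known, so this order is a description and no test.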

How the data were processed

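The authors deposited RMA values on the log2 scale for 31099 probe sets on 939 arrays. RMA is named in the submitters' notes without a version, and the paper's methods name its frozen form. Array medians lay between 5.41 and 5.73, and 0 pairs of arrays were identical. The 436 probe sets with several symbols and the 9831 with none were left out, except the one shared by Bax and LOC681314. Symbols were updated through RefSeq (GRCr8) for 20764 of 20832 probe sets.

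In R 4.3.3, limma 3.58.1 was fitted per compound to its treated and named vehicle arrays, with exposure time as a factor, and p-values were Benjamini-Hochberg adjusted over 14219 features. Time differences used the interaction. Dose slopes used concentrations scored by rank over 9 treated arrays. The fits were tested on simulated data. Members, lists and tests were chosen with earlier results of these data known. Named were the 3 largest called rises and falls of each member, the 3 genes most like it over the comparisons of campaigns 1 to 3, and the 2 genes called in most comparisons of each pathway list. In campaign 5 the replicate numbers pair the samples: the hybridization day matched the number on 55 of 57 arrays, and 48 of 54 same-numbered pairs deviated together (correlation over 0.1).

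Alternatives were an ordinary linear model, all vehicle arrays of a campaign, exact control names, each time alone, 2 rescalings, the median of probe sets, a filter on low signal, day and replicate blocks, leaving out each replicate number, and a 2-fold bound. Added after seeing the data were no fold bound, leaving out arrays with Kupffer cell markers above 7, 2 fibrate arrays, or each array of a named change in turn.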

Additional observations from a re-analysis of the deposited data

Results flagged for a closer look

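In groups of 4 to 10 arrays that the results above rest on, an array was singled out when its distance to the nearest other array was a large share of the whole range of its group. Of 33 groups examined 3 had such an array, and chance alone gives about 1 in 20 groups. Bid had 1 chlorpromazine array of campaign 4 at 8.57, where the other 5 of the 6 lay between 9.50 and 9.92. Bcl2l11 had 1 of the 4 vehicle arrays named for nimesulide at 0.67 day at 9.73, where the others lay between 8.80 and 8.93. Bcl2l1 had 1 of the 4 vehicle arrays named for cisplatin at 0.67 day at 9.30, where the others lay between 9.47 and 9.50.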

How the results depend on the processing

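The 71 upward and 22 downward calls of members rested mainly on the fold bound: a bound of 2-fold left 7 and 4, and no fold bound, an alternative added after seeing the data, gave 207 and 57. The arrays of 1 day alone gave 8 downward calls. Leaving out a replicate number gave 65 to 75 upward and 15 to 23 downward calls, and the remaining alternatives gave 57 to 79 and 15 to 28. With a replicate block there were 71 upward and 25 downward calls, 90 calls being shared with the fit without it, and 0 time differences, 0 dose slopes and 0 changes of campaign 5 passed. The 0 time differences became 5 against all vehicle arrays of the campaign, 1 with the median of the probe sets and 1 without the features of lowest mean signal, and stayed 0 when a replicate number was left out. The 0 dose slopes ranged from 0 to 2 when a replicate number was left out, the 2 being Bcl2l1 (0.23) and Mcl1 (0.30) with methapyrilene without replicate 2. Of 527 values of the 28 named changes under 18 or 19 alternatives each, 62 were not called, and 1 changed sign, Bcl2l11 with pantoprazole at 0.10 by the median of its probe sets. The causes were not tested.

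Bcl2, Bik, Bmf and Bak1 gave low array signal. Times and concentrations had 3 treated arrays each.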
